A study of Caenorhabditis elegans with 2 samples.

Results

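The genes cgh-1, spn-4, mex-1, mex-3, mex-5, mex-6, oma-1, oma-2, pos-1 and pie-1 encode RNA-binding proteins of the Caenorhabditis elegans oocyte and early embryo. They were chosen by name and are 10 of the 19973 protein-coding genes on nuclear chromosomes in the Ensembl annotation of genome build WBcel235 (ce11). The study mapped the transcription factor EFL-1 by chromatin immunoprecipitation and sequencing in whole L1 larvae of mixed sex. There was 1 group, with 2 biological replicates numbered 2 and 3, so no condition can be compared with another. All animals were of strain YL418, which carries unc-119(ed3) III and the transgene vrIs65, with EFL-1 fused to GFP and FLAG behind the ges-1 promoter, the efl-1 3'UTR and unc-119(+). The target is labelled as an eGFP and efl-1 fusion, the antibody is named only as efl-1, and the age within the L1 stage is given as unknown. The ges-1 promoter is known from intestinal cells, and the labels do not say which cells of these larvae made the fusion. L1 larvae have no oocytes, and their germ line consists of primordial germ cells and their first descendants. The lists therefore show where EFL-1 was found on DNA in whole larvae, not whether these genes were transcribed.

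Oocytes store mRNAs that are translated only later, in the embryo, when the genome is still silent. The proteins considered here hold those mRNAs silent, protect them, or switch on their translation in particular blastomeres, and so set the first cell fates. EFL-1 is a member of the E2F family and works with the partner DPL-1. In the adult germ line, efl-1 and dpl-1 are known to be needed for the expression of many genes of oogenesis and early embryogenesis. Many C. elegans transcripts are trans-spliced, so an annotated 5' end can lie downstream of the place where transcription starts.

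EFL-1 peaks passing the authors' IDR threshold, a measure of reproducibility between replicates, stood in the promoter windows of cgh-1, spn-4, mex-1 and pos-1, 4 of the 10 genes. Of all protein-coding genes, 11% had such a peak (2200 of 19973, 95% Clopper-Pearson interval 10.6 to 11.5%). That interval covers the counting of genes only and does not measure the spread between replicates. It treats genes as independent, although 44.3% of IDR promoter peaks were shared between genes. A gene was counted when a peak summit lay at most 1000 bp upstream or at most 500 bp downstream of any of its annotated 5' ends. The peaks at cgh-1 and spn-4 were strong and close to each other in signal, that at mex-1 was of middle strength, and that at pos-1 was at the lower edge of the set. No IDR summit lay in the windows of mex-3, mex-5, mex-6, oma-1, oma-2 or pie-1. The count of 4 stands on 10 genes, and no test was made of it. For 3 of the 4 genes, all but pos-1, another gene's annotated 5' end was nearer to the summit.

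The bases at or near the summits differ between the genes, and 30 bases of each are shown on the strand of the gene, read from the RefSeq WBcel235 genome. Capitals mark matches, on either strand, to the E2F consensus (TTTCCCGC, TTTCGCGC, TTTGCCGC or TTTGGCGC) or to TTTGAA, known from the cell cycle homology regions that DREAM complexes bind. TTTGAA on the opposite strand reads TTCAAA. The stretches for cgh-1 (chrIII:7498637-7498666, minus strand) and spn-4 (chrV:6785237-6785266, minus strand) are centred on their matches and do not reach the summit itself. Those for mex-1 (chrII:11967683-11967712, plus strand) and pos-1 (chrV:8414520-8414549, plus strand) are centred on their summits, because neither has a match within 100 bp. The last comes from a region below the IDR threshold, upstream of mex-5 (chrIV:13353460-13353489, plus strand), and is also centred on its match, 57 bp from the summit. It is an example, and other regions below the threshold also held matches, among them an E2F consensus 39 bp from a summit in an intron of mex-1 (rank 5438).
cgh-1: tTTTGAAttaccgccattttgTTTCGCGCg
spn-4: atgaagcgcgagTTTGAAtcaaataaaatt
mex-1: tgagacacgcgccgcgagagccgcgacgcg
pos-1: cttattttatgactggaattttcagcctcg
mex-5: tttcatttctgcTTCAAAgacgttttctcg

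The cgh-1 summit had an E2F consensus and a TTTGAA together, both on the strand of cgh-1, 10 bp and 32 bp from the summit. Of the 1886 IDR summits, 12.4% had the E2F consensus within 100 bp on either side, 49.8% had TTTGAA and 8.06% had both. In windows of the same length centred 100 bp upstream of all 19973 genes, the shares were 3.33%, 50.01% and 1.74%. An E2F consensus and a TTTGAA within the same 30 bases, a spacing looked for after the cgh-1 sequence was seen, occurred at 95 IDR summits (5.04%) and in 125 of the 19973 promoter windows (0.626%). At spn-4 TTTGAA lay 51 bp from the summit, and an E2F consensus appeared only when the window was widened to 250 bp on either side. The GATA consensus TGATAA was at none of the 4 summits, against 10.5% of IDR summits and 22.8% of promoter windows. The 201 bases around the mex-1 summit held 50.2% G or C, those of pos-1 44.8%, cgh-1 41.8% and spn-4 38.3%, and the median of all IDR summits was 39.8%. The promoter windows had a median of 32.8%, so the shares of the GC-rich E2F consensus come from windows of unlike composition. A match is a description of the letters and does not show that EFL-1 contacts them.

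Signal is the authors' value for each region, on a scale that differs between libraries. Each replicate was therefore divided by its own median over the IDR peaks that overlapped a region of that replicate. These were 1884 of the 1886 IDR peaks in replicate 2, with a median of 45.8, and 1825 in replicate 3, with a median of 19.2. Over the peaks matched in both, the ratio of replicate 2 to replicate 3 had a median of 2.48. In the IDR set the signal ran from 24.4 to 2581 with a median of 62.0.

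CGH-1, a DEAD-box RNA helicase of the DDX6 family that protects stored maternal mRNAs in granules, had the strongest peak of the 10 genes. The gene (WBGene00000479) lies at 7495320 to 7497832 of chromosome III on the minus strand, and the peak at 7498504 to 7498755. Its pooled signal was 422, 6.80 times the median, and it ranked 207 of 1886. Replicate 2 gave a signal of 274 (rank 232 of its 30000 regions) and replicate 3 a signal of 144 (rank 157). Scaled to the medians these were 5.99 and 7.50, a mean of 6.75 ± 1.07 (SD, n = 2). The summit lay 796 bp upstream of the 5' end, at -799 and -833 in the replicates. Both replicates placed cgh-1 among their strongest regions, with summits 34 bp apart, against a median of 17 bp over IDR peaks.

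SPN-4, an RNA recognition motif protein that controls maternal mRNAs and the orientation of the early spindle, was next. The gene (WBGene00004984) lies at 6783187 to 6784903 of chromosome V on the minus strand, and the peak at 6785190 to 6785402, with a pooled signal of 377 and rank 239. Its signals were 272 in replicate 2 and 104 in replicate 3, which scale to 5.93 and 5.43, a mean of 5.68 ± 0.359 (SD, n = 2). The summit lay 402 bp upstream, and the replicate summits were 1 bp apart. The scaled values of cgh-1 and spn-4 differed by about the spread between replicates, and spn-4 was below cgh-1 in both replicates.

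The 3 genes mex-1, pos-1 and pie-1 encode CCCH zinc finger proteins inherited by particular blastomeres, and their signals were unlike each other. MEX-1 is needed for the proper segregation of germline factors among early blastomeres. The mex-1 peak (gene WBGene00003228, chromosome II, 11968637 to 11972330, plus strand; peak 11967662 to 11967750) was 89 bp wide, and its summit lay 940 bp upstream. Its pooled signal was 101 (rank 680), with 67.2 in replicate 2 and 33.4 in replicate 3, a scaled mean of 1.60 ± 0.192 (SD, n = 2). Both replicates put mex-1 above the median IDR peak and well below spn-4.

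POS-1 regulates the translation of glp-1 and other maternal mRNAs in posterior blastomeres. The pos-1 peak (gene WBGene00004078, chromosome V, 8414086 to 8415254, plus strand; peak 8414392 to 8414675) had its summit in an intron of pos-1, 448 bp downstream of the 5' end. Its pooled signal of 24.6 ranked 1875 of 1886, just above the lowest IDR value of 24.4. Replicate 2 gave 10.6 (rank 3031) and replicate 3 gave 11.6 (rank 1442), or 0.231 and 0.604 times the medians (0.418 ± 0.264, SD, n = 2). Replicate 3 alone would place pos-1 among its 1886 strongest regions, and replicate 2 alone would not. Of the 2200 genes with a peak, 1.18% had their strongest summit more than 300 bp downstream of the 5' end.

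**Figure D1:**
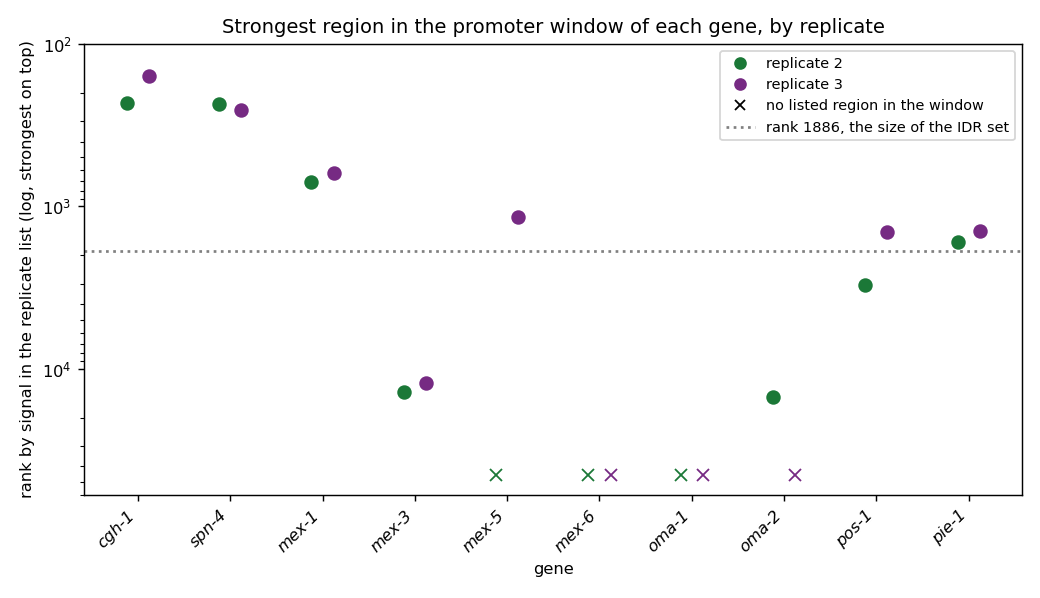
Rank of the strongest region in the promoter window of each gene, in replicate 2 (green) and replicate 3 (purple), on a log axis with the strongest on top; crosses mark windows with no listed region and the dotted line is rank 1886. The genes cgh-1, spn-4 and mex-1 are above the line in both replicates, pos-1 and mex-5 only in replicate 3, and pie-1 in both but at different places.

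PIE-1, which represses transcription in the germline blastomeres, had several weak regions and no IDR peak. The gene (WBGene00004027, chromosome III, 12426893 to 12429195, plus strand) has annotated 5' ends 1820 bp apart. The pooled list had 5 regions in its windows, with signals of 21.0, 20.8, 16.5, 8.29 and 7.76. The strongest of these ranked 2138, just outside the IDR set, and lay 999 bp upstream of the first 5' end. The next (rank 2165) lay in an intron, 652 bp upstream of the second 5' end. In replicate 2 the strongest region was that intronic one, at -613 from the second 5' end, with a signal of 20.7 and rank 1655. In replicate 3 it was at -807 from the first 5' end, with a signal of 11.8 and rank 1422, and the intronic region was not matched there. The replicates therefore both ranked a pie-1 region among their 1886 strongest, but not the same region. A strong IDR peak (signal 510, rank 150, 12429790 to 12430045) lay 1188 bp past the second 5' end of pie-1, outside the window. It was 272 bp upstream of snr-6, which encodes a small nuclear ribonucleoprotein. A weaker IDR peak (signal 34.5, rank 1461), also outside the window, lay between genes. Its summit was 2594 bp upstream of the first 5' end of pie-1 and 2581 bp upstream of the divergent tat-1.

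MEX-5 and MEX-6 are closely related CCCH proteins that establish polarity in the zygote cytoplasm, and neither gene had an IDR peak. At mex-5 (WBGene00003230, chromosome IV, 13353723 to 13356104) a region 189 bp upstream had a pooled signal of 12.4 and rank 4454. Replicate 3 listed it with a signal of 14.5 (rank 1169, 0.754 times the median), and replicate 2 listed no region in the window. Replicate 2 did list a region just outside it, 521 bp downstream of the 5' end, with a signal of 11.2 (rank 2845), and the pooled list had a region at 563 bp with a signal of 12.1. The weakest region that replicate 2 listed had a signal of 3.25, which is 0.0709 times its median. The mex-5 summit also lay in the window of the divergent rec-8, a meiotic cohesin gene, 341 bp from its 5' end. At mex-6 (WBGene00003231, chromosome II, 9524174 to 9526359) no list had a region in the window, and the nearest IDR summit was 67.1 kb away. A pooled region outside the mex-6 window, 665 bp downstream of the 5' end, had a signal of 5.85 (rank 28790).

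OMA-1 and OMA-2 are redundant CCCH proteins needed for oocyte maturation, and both genes lacked an IDR peak in the window while a gene just downstream had one. No list had a region in the window of oma-1 (WBGene00003864, chromosome IV, 8888976 to 8890999). Just outside that window, at -1027 bp, a region had a pooled signal of 8.02 (rank 14105). Replicate 3 gave 4.59 there, and replicate 2 listed none at that place. At oma-2 (WBGene00003865, chromosome V, 8029439 to 8031214) a region in a coding exon lay 485 bp downstream of the 5' end. It had a pooled signal of 5.89 (rank 28451), 4.84 in replicate 2 and no counterpart in replicate 3. Farther outside the oma-2 window, at -1820 bp, a region had a pooled signal of 14.6 (rank 3252). Replicate 3 gave 11.8 (rank 1413) at -1824 bp, and replicate 2 gave 4.98 (rank 14089) at -1511 bp. The nearest IDR summit to oma-2 lay 1910 bp past its 5' end (chromosome V, 8031200 to 8031480, signal 719, rank 81), 62 bp upstream of the valyl-tRNA synthetase gene vars-1. That to oma-1 lay 2351 bp past its 5' end (signal 160, rank 500), 135 bp upstream of spr-2. By distance alone, these summits were nearest to the 5' ends of vars-1 and spr-2. The spn-4 and mex-1 summits were likewise nearest to the 5' end of another gene, so distance does not set the 2 cases apart.

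MEX-3, a KH-domain protein that represses pal-1 mRNA, had weak regions despite the longest window of the 10 genes. The gene (WBGene00003229) has 5 distinct 5' ends, and its windows cover 4414 bp. The strongest pooled region, in an intron and 232 bp upstream of a later 5' end, had a signal of 6.67 and rank 21965. Replicate 2 gave 5.01 at -304 and replicate 3 gave 4.45 at -147. These regions ranked 13868 and 12305 in the replicates, far below rank 1886, and the nearest IDR summit was 16560 bp away.

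**Figure D2:**
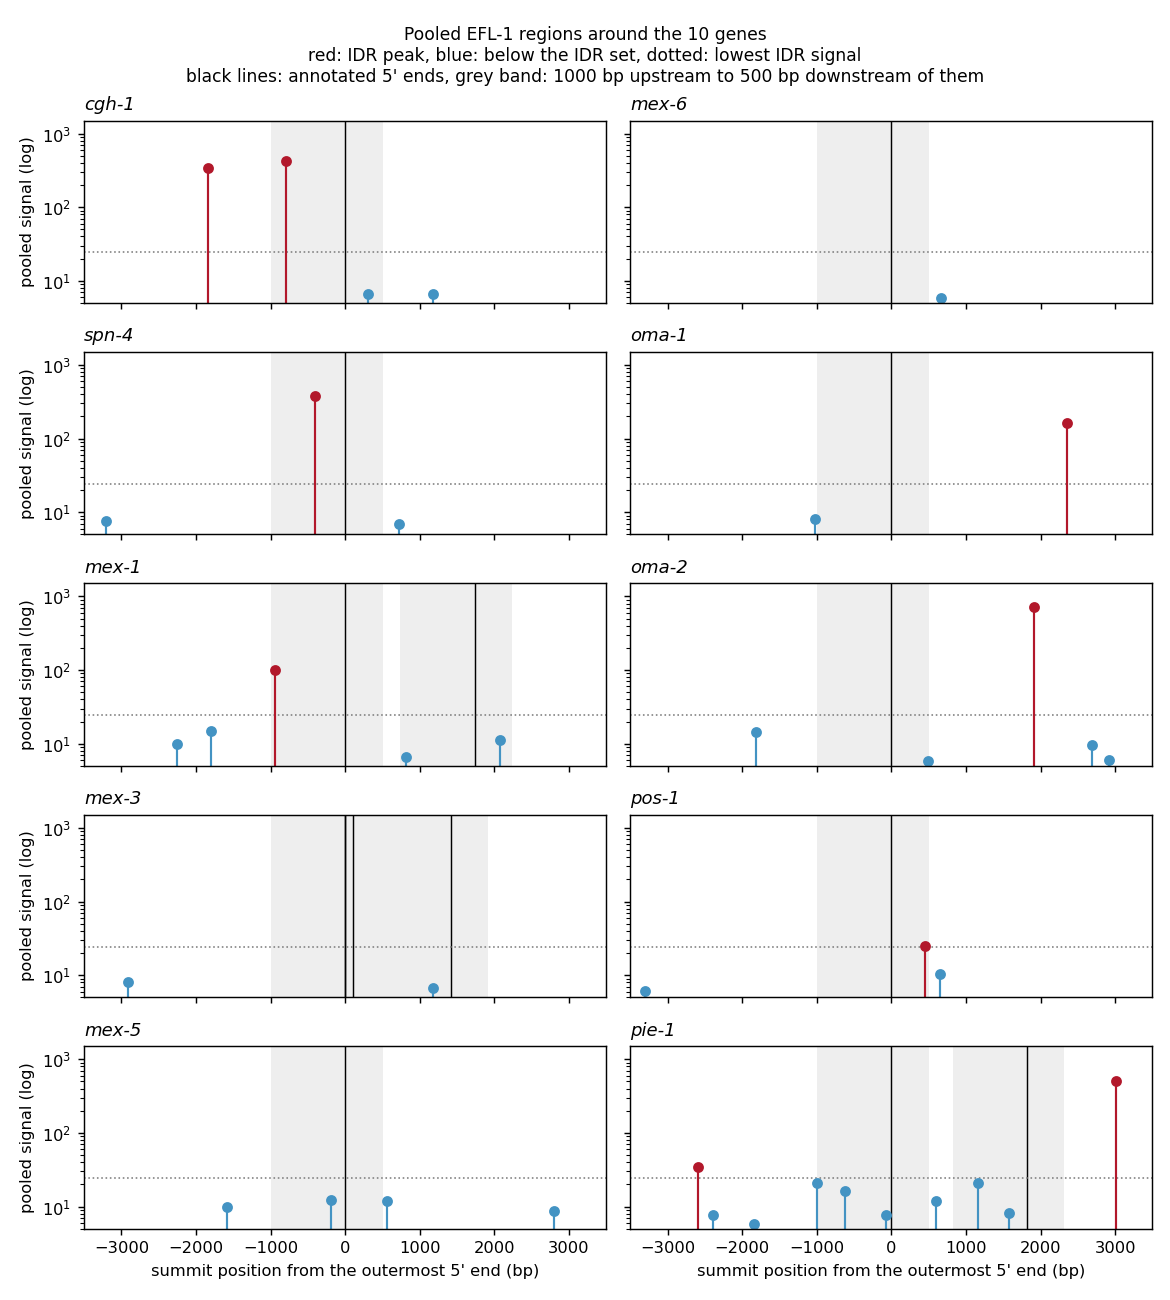
Signal of every pooled region within 3500 bp of the outermost 5' end of each gene, on a log axis; red marks IDR peaks, blue weaker regions, black lines the annotated 5' ends, grey the promoter windows and the dotted line the lowest IDR signal of 24.4. Red peaks stand in the grey windows of cgh-1, spn-4, mex-1 and pos-1, while those near oma-1, oma-2 and pie-1 stand outside them.

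The neighbours of the 4 genes with an IDR peak differed. At cgh-1 the summit lay between genes, in the 915 bp between cgh-1 and C07H6.9 on the same strand, 120 bp past the 3' end of C07H6.9. The nearest annotated 5' end, 710 bp away, belongs to C07H6.9, but the summit lies downstream of that whole gene. Of the genes for which the summit lies upstream, cgh-1 was the nearest, and sap-140 was next at 1110 bp. A separate IDR peak of signal 344 (rank 270) lay 1833 bp upstream of cgh-1. It was 73 bp upstream of sap-140 and 194 bp upstream of C07H6.9, which are divergent. The cgh-1 summit was thus distinct in the IDR list from the peak between C07H6.9 and sap-140.

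At spn-4 and mex-1 the summit lay nearer to a gene transcribed the other way. The spn-4 summit was 146 bp upstream of spe-39, a vesicle trafficking gene needed in sperm, in the 547 bp between the divergent genes. The mex-1 summit was 153 bp upstream of W03C9.5 and 766 bp upstream of rab-7, the late endosome GTPase gene, and 1092 bp separate mex-1 from W03C9.5. The pos-1 summit was inside pos-1, with the 5' end of vha-18, a vacuolar ATPase gene, 1052 bp away. A peak list cannot tell which of a divergent pair a peak serves.

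**Figure D3:**
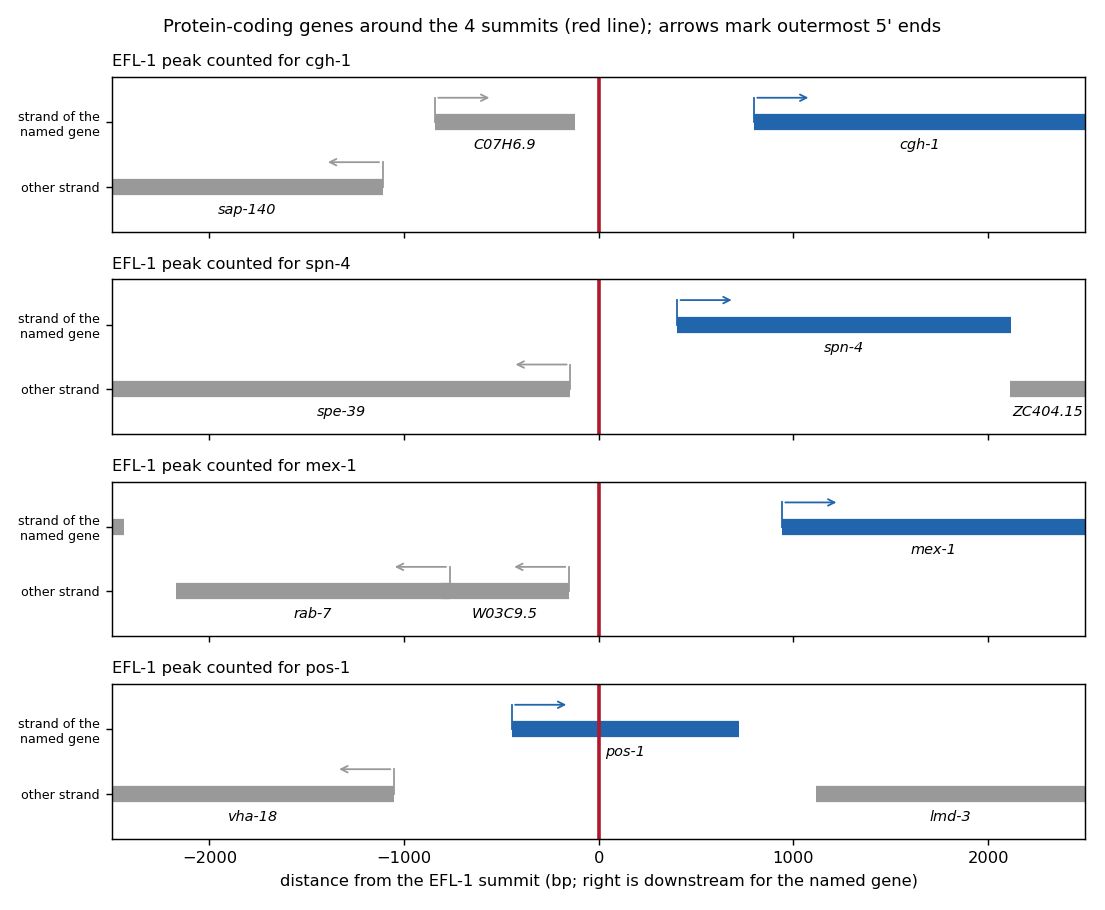
Protein-coding genes within 2500 bp of the IDR summit counted for cgh-1, spn-4, mex-1 and pos-1, with the named gene in blue, neighbours in grey and the summit as a red line at 0 bp; arrows mark the outermost 5' ends. The red line is 146 bp from spe-39, 153 bp from W03C9.5 and inside pos-1, and at cgh-1 it lies past the 3' end of C07H6.9.

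The summits of all 4 genes were farther from the 5' end than those of most genes with an IDR peak. Over the 2200 genes with a peak the median position of the strongest summit was -215 bp, with quartiles of -380 and -120 bp (negative is upstream). A summit more than 400 bp from the gene's own 5' end was found for 24.1% of these genes and for all 4 here. A summit 796 bp or more upstream was found for 5.95%, and for cgh-1 and mex-1. The cut-off of 400 bp lies just below the 402 bp of spn-4, and 796 bp is the distance of cgh-1 itself. Both shares therefore describe where the 4 summits lie and are not tests. With the window cut to 300 bp upstream and 100 bp downstream, none of the 10 genes had a peak, against 7.17% of all genes. With each peak given only to the gene with the nearest 5' end, pos-1 alone remained, against 7.51% of all genes. Sharing was common, since 683 of 1541 IDR promoter peaks (44.3%) counted for more than 1 gene.

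**Figure D4:**
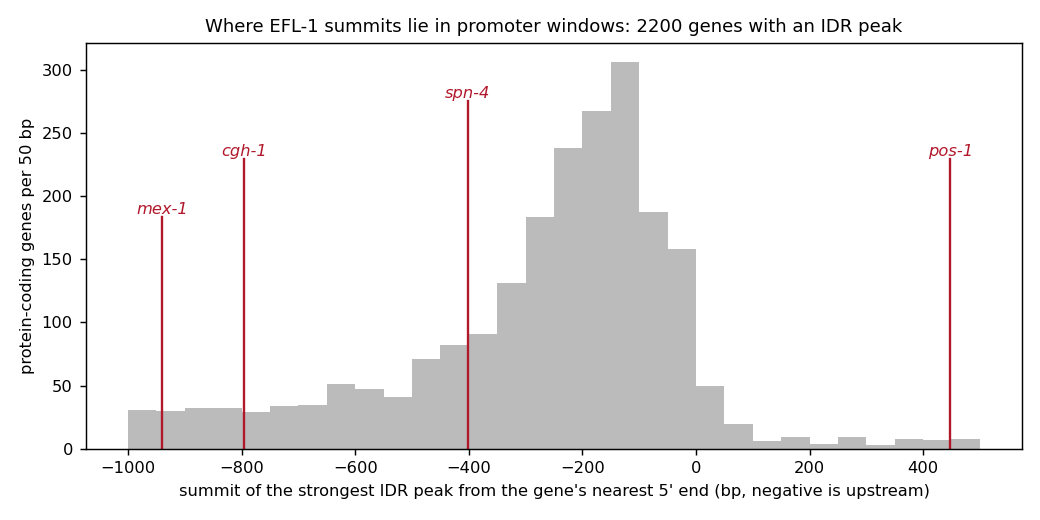
Number of protein-coding genes per 50 bp by position of their strongest IDR summit relative to the nearest of their own 5' ends, for the 2200 genes with a peak, with red lines for the 4 genes. All 4 lines lie outside the quartiles of -380 and -120 bp.

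The other ways of counting changed which genes were included. Among the 943 strongest IDR peaks, cgh-1, spn-4 and mex-1 were counted, against 6.48% of all genes. With the 1886 strongest regions of replicate 3 alone, 6 genes were counted (those 4 with mex-5 and pie-1), against 10.4%. With those of replicate 2 alone, 4 were counted (cgh-1, spn-4, mex-1 and pie-1), against 10.8%. The same 4 had such a region in both replicates, against 8.68%. With the 3772 strongest pooled regions pie-1 joined the 4 IDR genes, against 16%. Counting a peak by any overlap with the window, or using the outermost 5' end alone, gave the same 4 genes, against 11.4% and 10.6%. Any of the 30000 pooled regions was found at 8 of the 10 genes, all but mex-6 and oma-1, against 51% of all genes. Only cgh-1, spn-4 and mex-1 were in the IDR set and also among the strongest regions of each replicate.

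Genes with more annotated 5' ends had peaks more often. Of the 14498 genes with 1 distinct 5' end, 9.32% had an IDR peak, of the 3418 with 2 ends 14.1%, and of the 2057 with 3 or more 17.8%. With the window of the outermost end alone, the shares of the last groups were 13.5% and 15%. Among the 4 genes with an IDR peak, cgh-1, spn-4 and pos-1 have a single 5' end and mex-1 has 2. The genes most like each in pooled signal, by the IDR ranks just above and just below, were C45G9.11 and C45G9.2 for cgh-1, and F35G2.3, marb-1 and romo-1 for spn-4. For mex-1 they were Y75B12B.11, C47D12.2 and trr-1, and for pos-1 the gene teg-4.

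Genes that work with these proteins were also read from 6 lists, 67 genes in all. An IDR peak stood at 15 of the 67 (22.4%), against 11% of all genes. That difference was not there in the narrower window of 300 bp upstream and 100 bp downstream, which held a peak for 5 of 67 (7.46%), against 7.17% of all genes. By the nearest 5' end the count was 7 of 67 (10.4%), against 7.51%. Among CGH-1 partners in translational repression, deadenylation and decapping, 5 of 15 matched genes had a peak: ifet-1, patr-1, ife-3, lsm-1 and lsm-3. The strongest, ifet-1, an eIF4E-binding repressor, had a pooled signal of 355 (5.14 ± 1.03 times the median, SD, n = 2). The next, patr-1, which encodes a decapping activator, had 283 (3.96 ± 1.56). None of these 5 genes held the nearest 5' end, and each of the 5 peaks also counted for another gene. The ifet-1 and lsm-1 peaks counted for the ribosomal protein genes rps-1 and rps-9, and the patr-1 and ife-3 peaks for dna-2 and B0348.10. The lsm-3 peak counted for Y62E10A.20, Y62E10A.23 and mdt-9. In the narrower window and by the nearest 5' end, 0 of these 15 genes had a peak, against 7.17% and 7.51% of all genes. Of the 16 other germline and maternal RNA regulators, 2 (12.5%) had a peak, nos-3 (62.2) and lin-28 (40.7), against 11% of all genes. The rest did not: gld-1, gld-2, gld-3, lin-41, puf-3, puf-5, puf-8, puf-11, fbf-1, fbf-2, nos-1, nos-2, daz-1 and etr-1.

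Among 13 regulators of the maternal proteins, egg-5 (pooled signal 219), the 14-3-3 gene par-5 (131) and the polo kinase gene plk-1 (123) had a peak. Among 10 genes known as targets of the proteins, skn-1 (92.1), cul-4 (66.4) and mei-1 (29.8) did. Of 8 polarity genes, par-2 (527), par-5 and the atypical protein kinase C gene pkc-3 (30.7) did. The par-2 peak was stronger than that of cgh-1 in pooled signal, at 8.69 ± 2.14 times the median (SD, n = 2), but it also counted for kbp-4 and rab-18 and was not nearest to par-2. The par-5 and mei-1 peaks were likewise nearer to another gene's 5' end, and also counted for M117.3 and npp-2. Of 10 P granule genes, 0 had an IDR peak, against 11% of all genes. The 1886 strongest regions also gave 0 in either replicate, against 10.8% in replicate 2 and 10.4% in replicate 3. A weaker pooled region was found at 4 of the 10, against 51% of all genes with any pooled region. These lists share genes and were described, not tested against each other.

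**Figure D5:**
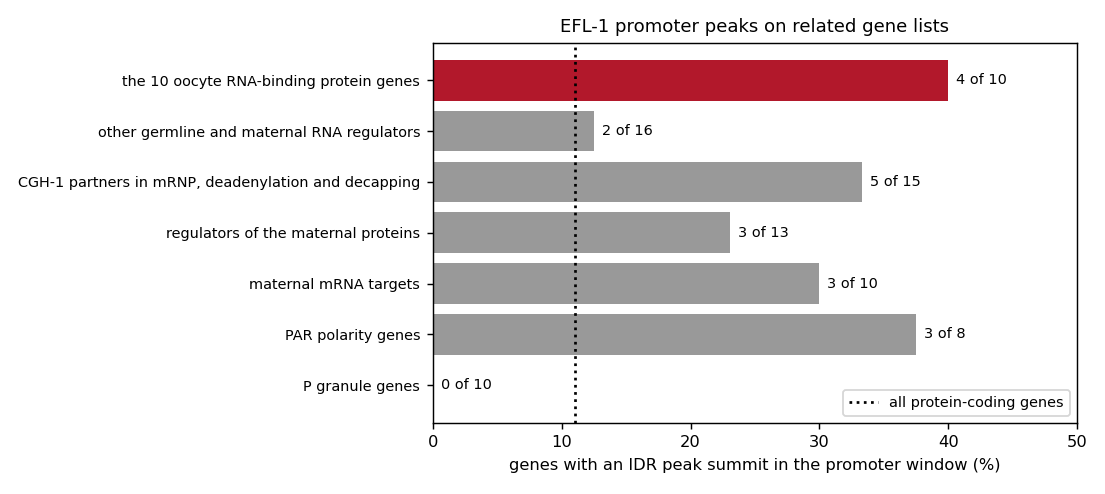
Share of genes with an IDR summit in the promoter window for the 10 oocyte RNA-binding protein genes (red) and 6 related lists (grey), with counts beside the bars and the share of all protein-coding genes as a dotted line. The bars run from 0 of 10 for P granule genes to 4 of 10 for the oocyte RNA-binding protein genes.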

How the data were processed

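EFL-1 chromatin immunoprecipitation was measured in 2 biological replicates (numbers 2 and 3, 1 technical replicate each, fragments of 150 to 350 bp per the labels). Per the deposited notes, the authors made a narrowPeak list for each replicate and for the pooled replicates, each from alignments and a further file, and derived the IDR set from them. The deposited signal values (column 7) were used on ce11, with summits from the offset in column 10. The sources used here name no peak caller, aligner, version or signal scale, and sequencing depth is unknown. The IDR set equals the 1886 regions of highest pooled signal, and each other list holds 30000 regions. Lists on ce10 were not used. No column lacked a match to a sample or pool.

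Summits were assigned to windows of 1000 bp upstream to 500 bp downstream of 5' ends of Ensembl release 115 transcripts of protein-coding genes, with Python 3.11.15, numpy 2.4.6, pandas 2.3.3, scipy 1.17.1 and matplotlib 3.10.9. Window placement was checked on simulated data, and so was the finding of a planted TTTGAA on either strand. The motif check used a pattern of its own and did not cover the E2F consensus, TGATAA or distances to the summit. Motifs were searched on both strands of the RefSeq WBcel235 genome. Named genes were the 10 genes, the genes around their summits, the nearest gene by signal rank above and below, and up to 5 genes with a peak per related list. For the other germline and maternal RNA regulators, the genes without a peak were named too. The 10 genes and the lists were chosen with earlier results of these data known, so their counts were set beside the share of all genes and not tested. Each replicate alone, other peak numbers, windows, overlap rules and motif windows were tried.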

Additional observations from a re-analysis of the deposited data

How the results depend on the processing

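Results with no test were called moved when they changed by more than 1.5 times (counts and shares) or by more than the spread between replicates. The count of the 10 genes with an IDR peak was 4 to 6 with a replicate left out, 0 with the narrower window (300 bp upstream, 100 bp downstream) and 1 with each peak given to the nearest 5' end. The share of all genes was 6.48% with the 943 strongest peaks and 7.17% with the narrower window. The count over the 67 related genes was 23 with the 3772 strongest pooled regions, 5 with the narrower window and 7 with the nearest 5' end, against 15. The fewer calls under narrower windows and nearest ends follow from their construction. As percentiles within the replicate lists, the signals were 99.4 for cgh-1, 99.2 for spn-4, 97.8 for mex-1 and 92.5 for pos-1. With a replicate left out, summit positions ran from -833 to -799 bp for cgh-1, -403 to -402 for spn-4, -951 to -942 for mex-1 and 443 to 460 for pos-1. The E2F consensus was at 2 of 4 summits and TGATAA at 1 with 250 bp on either side, and TTTGAA at 1 of 4 with 50 bp. The count in both replicates was added after the data were seen. No paired analysis was possible because there is only 1 group. With 2 replicates, unknown depth and no signal listed below 3.25 in replicate 2 and 2.63 in replicate 3, a window with no region does not show absence of EFL-1.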
